A study of Felis catus with 15 samples.

Results

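The endoplasmic reticulum (ER) is where a cell makes the proteins it secretes. Transcripts of 57 genes of this ER folding and early secretory pathway were counted in 15 RNA-seq libraries of domestic cat (Felis catus) epididymis, all from the corpus, its middle stretch. The genes were chosen by symbol and matched to the NCBI gene identifiers of the count table, and 57 of 57 were found among its 38995 genes. All 57 also passed the filter on low counts that left 18038 genes for testing. They fall into 14 chaperones and folding enzymes, 4 genes of stress sensing and 7 genes of ER-associated degradation. The rest are 12 genes of protein targeting and translocation, 6 genes of N-glycosylation and 14 genes of COPII vesicles. The 4 genes of stress sensing, called sensors below, are ERN1, ATF6, EIF2AK3 and XBP1, a transcription factor downstream of ERN1. The degradation group was split off for this description, and the KDEL receptors and p24 cargo receptors were placed with the COPII vesicles they travel in.

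Proteins bound for secretion enter the ER through the Sec61 channel, lose their signal peptide, receive N-linked sugars and are folded by chaperones and disulfide isomerases. Folded cargo leaves in vesicles with a COPII coat, escaped chaperones are brought back by KDEL receptors, and misfolded proteins are pulled out and degraded. Sensors in the ER membrane adjust the output of many of these genes through the unfolded protein response. The epididymal epithelium is known for secreting large amounts of protein into the duct, where sperm mature.

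The 3 groups hold 5 libraries each: corpus explants in culture with added extracellular vesicles (here "culture with vesicles"), corpus explants in culture without them ("culture"), and fresh corpus tissue ("fresh"). Extracellular vesicles are small membrane-bound particles that cells release, and the series text says that those added were caput vesicles, from the region upstream of the corpus. A code in the labels reads D3 for both cultured groups and D0 for fresh tissue, and no source used here says what the code means. The age, number and any treatment of the animals, the vesicle dose and the culture conditions are not given either. The labels number the replicates but do not say whether they come from separate animals, so each p-value reflects only how much these samples vary, which may be technical. RNA came from a Qiagen extraction, and libraries were of the TruSeq Stranded mRNA type.

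Total counts per library lay between 17308832 and 27420218. The library culture 3 stood apart: counts on the 13 mitochondrial genes made up 0.179% of it, against 6.23% to 7.48% in the other cultures. The counts of calls in culture are therefore also given without it. The level of 9 epididymal secretory genes summed to 2091 to 3430 CPM (counts scaled to a common library size) in culture with vesicles, 994 to 3201 CPM in culture and 26409 to 32928 CPM in fresh tissue. For 10 markers of principal cells, the epithelial cells that absorb and secrete, the sums were 184 to 379 CPM in culture with vesicles, 214 to 358 CPM in culture and 1268 to 1581 CPM in fresh tissue. In whole tissue, fewer cells of a type and less RNA per cell cannot be told apart, and what these shifts contribute to the pathway's values was not tested.

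Most of the pathway was lower in both cultured groups than in fresh tissue. In culture against fresh, 38 of the 57 members fell, 2 rose and 17 did not pass the test at an adjusted p of 0.05 (edgeR quasi-likelihood, Benjamini-Hochberg over all 18038 genes). Over all genes tested in this comparison 54.3% were called, 25.6% as lower and 28.7% as higher, beside 66.7% of the members lower and 3.51% higher. The median log2 fold change of the members was -0.72, against 0.04 for all genes. With vesicles added, 34 members fell against fresh, 2 rose and 21 did not pass, with a median of -0.59 against 0.01 for all genes. The background there was 52.9% called, 25.5% lower and 27.4% higher. The counts by role below are to be read beside these shares of all genes. Both comparisons use the same 5 fresh libraries and are not independent. Without culture 3, 41 members were lower and 5 higher in culture against fresh, and 42 lower and 3 higher in culture with vesicles, a comparison it enters through the shared scaling and estimate of spread. Calls over all genes were more numerous too. Of 18517 genes tested in that fit, 5370 were lower and 5720 higher in culture, and 5715 and 5943 in culture with vesicles. The 4 members called lower in culture but not in culture with vesicles were DERL1, SSR1, SEC31A and TMED10, and in the direct comparison of the cultured groups none of them passed (unadjusted p = 0.504, 0.439, 0.506 and 0.360 in that order, edgeR). Without culture 3 all 4 were called lower in culture with vesicles too (edgeR adjusted p = 0.0241, 0.000906, 0.00102 and 0.00146 in that order). They are therefore not read as set apart by the vesicles.

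The libraries of the groups often did not overlap. For 35 members every culture library lay below every fresh library, and for 2 every one lay above. For culture with vesicles these numbers were 40 and 4. Such counts were not made over all genes, of which 54.3% and 52.9% were called in these comparisons. They are therefore not read as particular to the pathway. The 57 genes together took 1.20% ± 0.0859 of the counts in culture with vesicles, 1.24% ± 0.0991 in culture and 2.73% ± 0.0886 in fresh tissue (SD, n = 5 each). Most of that change sat in the chaperones, with 0.576% ± 0.0450 in culture with vesicles, 0.642% ± 0.143 in culture and 1.70% ± 0.0605 in fresh tissue. Without culture 3 the culture value for the chaperones was 0.581% (n = 4). The COPII group changed least in proportion, with means of 0.180% in culture with vesicles, 0.169% in culture and 0.237% in fresh tissue.

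**Figure D1:**
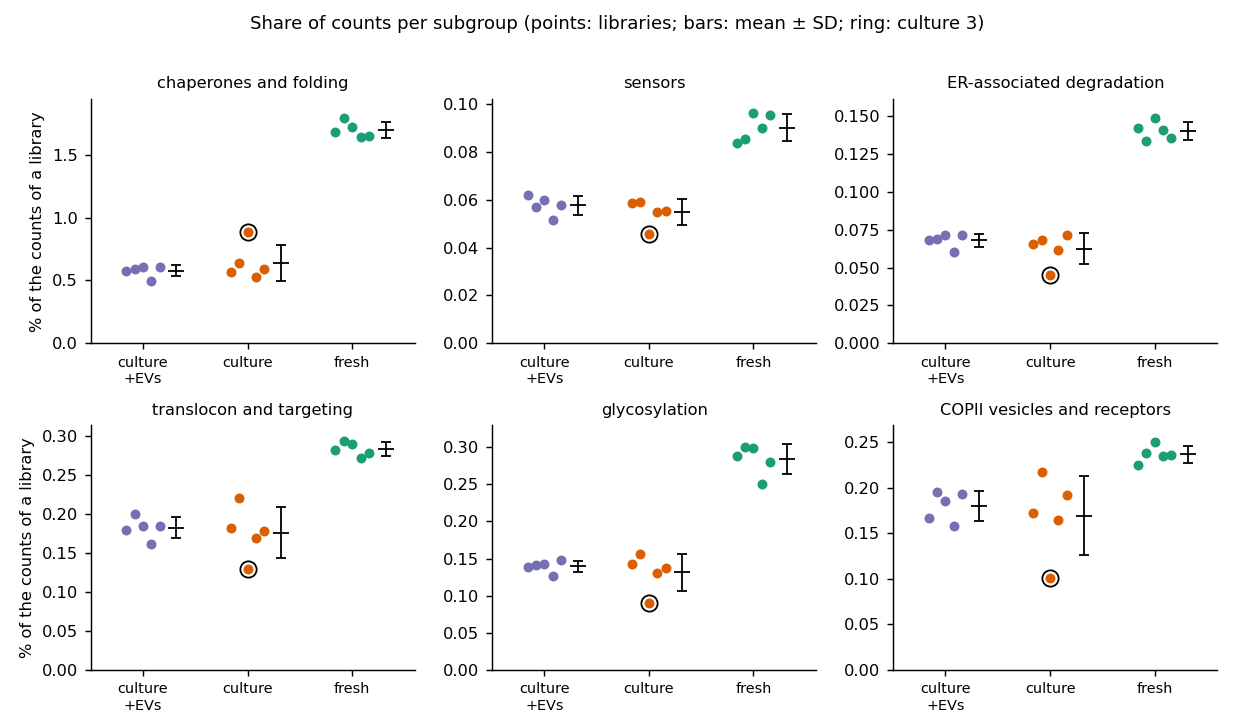
Share of each library's counts taken by the members of each of the 6 groups of genes, as percent, for culture with added vesicles (culture+EVs), culture and fresh tissue; points are libraries, bars are mean ± SD of 5 libraries and the ring marks culture 3. In every panel the fresh libraries lie above all cultured libraries, and culture 3 is the highest culture library for the chaperones and the lowest for the other 5 groups.

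The chaperones and folding enzymes fell almost throughout. Of 14 genes, 13 fell in culture against fresh, 12 of them by more than 2-fold, 0 rose and 1 did not pass, with a median log2 fold change of -1.63. With vesicles 13 of 14 fell against fresh, with a median of -1.80. Without culture 3 the count in culture was again 13, with a median of -1.79.

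HSPA5, the Hsp70 chaperone of the ER (BiP) that binds nascent chains and holds the stress sensors in check (gene 101083630), had 785, 879, 842, 575 and 877 CPM in culture with vesicles, 689, 963, 1062, 659 and 977 CPM in culture and 2273, 2146, 2140.3, 3204 and 2349 CPM in fresh tissue. All 10 cultured libraries lay below all fresh libraries, and fresh 4 was the highest of its group. It fell 2.78-fold in culture (log2 -1.48 ± 0.18, SE, 5 libraries a group; edgeR adjusted p = 8.41e-06) and 3.06-fold in culture with vesicles (-1.61 ± 0.18, adjusted p = 3.61e-06). HSP90B1 (GRP94), the ER's Hsp90, fell by 1.63 ± 0.19 in culture on the same scale (adjusted p = 4.24e-06), and HYOU1, a nucleotide exchange factor for HSPA5, by 1.57 ± 0.25 (adjusted p = 8.13e-05).

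Co-factors of HSPA5 fell too. DNAJC3, a J-domain co-chaperone of HSPA5 (gene 101099171), had 188, 199.9, 189, 229 and 215 CPM in culture with vesicles, 177, 179, 126, 226 and 213 CPM in culture and 669, 685, 694, 589.6 and 765 CPM in fresh tissue. The cultured groups lay below fresh tissue with no overlap, and culture 3 was here the lowest culture library. DNAJC3 fell 3.69-fold in culture (log2 -1.88 ± 0.15, edgeR adjusted p = 1.11e-07) and 3.33-fold in culture with vesicles (-1.74 ± 0.15, adjusted p = 2.24e-07). SDF2L1, which works with the J-protein DNAJB11 to keep clients soluble (gene 101086603), had 19.3, 18.4, 17.8, 18.5 and 11.9 CPM in culture with vesicles, 14.8, 20.2, 43.0, 13.8 and 11.8 CPM in culture and 327, 319, 298, 286 and 247 CPM in fresh tissue. Its groups did not overlap either, and it had the largest fold of the 57 members in both comparisons against fresh. The fall was 14.3-fold in culture (log2 -3.83 ± 0.32, adjusted p = 1.58e-07; -4.28 without culture 3) and 17.2-fold in culture with vesicles (-4.10 ± 0.32, adjusted p = 9.22e-08). DNAJB11 itself fell by 1.07 ± 0.11 on the log2 scale in culture (adjusted p = 9.58e-07), with 53.7 to 67.6 CPM in culture with vesicles, 49.9 to 67.5 CPM in culture and 108 to 129 CPM in fresh tissue.

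Among the disulfide isomerases, which form and reshuffle disulfide bonds, 3 of 4 fell in culture. PDIA4 (gene 101087568) had 209, 183, 201, 175 and 169.6 CPM in culture with vesicles, 193, 188, 289, 188 and 163 CPM in culture and 845, 722, 799, 749 and 695 CPM in fresh tissue. All cultured libraries lay far below the fresh ones, and culture 3 was the highest of the culture libraries. PDIA4 fell 3.73-fold in culture (log2 -1.90 ± 0.15, edgeR adjusted p = 9.80e-08) and 4.06-fold in culture with vesicles (-2.02 ± 0.15, adjusted p = 5.57e-08). PDIA6 fell by 1.63 ± 0.18 on the log2 scale in culture (adjusted p = 2.41e-06), and PDIA3, the isomerase that partners the lectin chaperones, by 1.43 ± 0.12 (adjusted p = 1.25e-07). P4HB, the classic disulfide isomerase and also a subunit of the collagen prolyl 4-hydroxylase (gene 101099917), was the chaperone that did not pass. It had 688, 787, 854, 687 and 689 CPM in culture with vesicles, 671, 968, 1958, 711 and 785 CPM in culture and 679, 862, 770.0, 827 and 838 CPM in fresh tissue. The groups overlapped, and culture 3 was far above every other library. Its log2 difference from fresh was 0.36 ± 0.24 in culture (edgeR adjusted p = 0.230; -0.01 without culture 3) and -0.10 ± 0.24 in culture with vesicles (adjusted p = 0.751).

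The lectin chaperones hold newly made glycoproteins while they fold, CALR free in the lumen and CANX anchored in the membrane. CALR fell by 1.71 ± 0.18 on the log2 scale in culture (edgeR adjusted p = 1.66e-06), with 671 to 770.5 CPM in culture with vesicles, 655 to 1298 CPM in culture and 2414 to 3064 CPM in fresh tissue. CANX fell by 0.57 ± 0.10 (adjusted p = 0.000148), with 766 to 800.2 CPM in culture with vesicles, 768 to 838 CPM in culture and 1069.5 to 1224 CPM in fresh tissue. For both genes the cultured libraries lay below the fresh ones. MANF, a small secreted ER protein that binds HSPA5, fell by 1.70 ± 0.14 (adjusted p = 1.56e-07). CRELD2, a disulfide-rich ER protein known as a target of the unfolded protein response in mouse cells (gene 101099815), had 27.0, 29.4, 28.0, 23.8 and 21.2 CPM in culture with vesicles, 21.0, 27.5, 106, 23.2 and 21.9 CPM in culture and 255, 265, 299, 189 and 250.5 CPM in fresh tissue. All cultured libraries lay below fresh tissue, and culture 3 lay far above the other cultures. CRELD2 fell by 2.66 ± 0.40 on the log2 scale in culture (adjusted p = 5.51e-05) and by 3.42 without culture 3, and its fall in culture with vesicles was 9.71-fold (-3.28 ± 0.41, adjusted p = 9.69e-06).

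**Figure D2:**
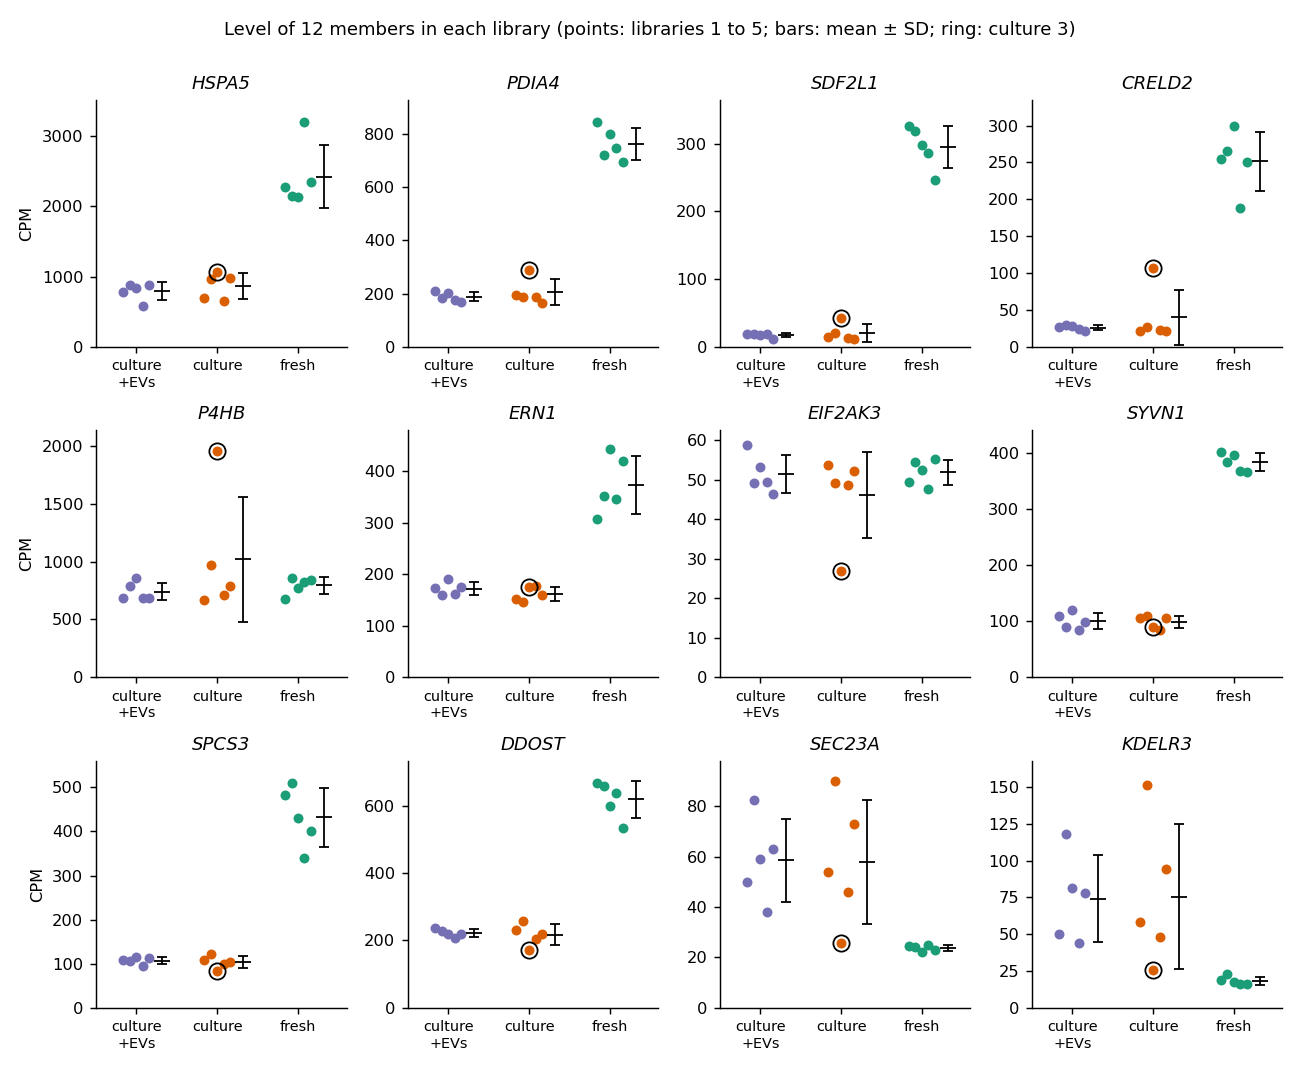
CPM in every library (y axis, from 0) for 12 of the members, by culture with added vesicles (culture+EVs), culture and fresh tissue; points are libraries, bars are mean ± SD of 5 libraries and the ring marks culture 3. Most panels show both cultured groups below fresh tissue, while KDELR3 and SEC23A lie higher in the cultured groups and P4HB and EIF2AK3 overlap.

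The sensors moved less, and not alike. In culture against fresh 3 of 4 fell, 0 rose and 1 did not pass (median log2 -0.45), with the same counts and a median of -0.41 in culture with vesicles. Without culture 3 the count in culture was 2 of 4. ERN1 (IRE1), the kinase and RNase that splices XBP1 mRNA (gene 101084148), had 174, 160.1, 191, 161 and 175 CPM in culture with vesicles, 152, 145, 175, 177 and 159 CPM in culture and 307, 350.4, 443, 347 and 419.8 CPM in fresh tissue. The cultured libraries lay below all fresh libraries. ERN1 fell 2.31-fold in culture (log2 -1.21 ± 0.12, edgeR adjusted p = 9.73e-07) and 2.17-fold in culture with vesicles (-1.12 ± 0.12, adjusted p = 1.90e-06). ATF6, a membrane-bound transcription factor released by cleavage (gene 101086780), had 163, 129, 136, 136 and 122 CPM in culture with vesicles, 143, 124, 128, 139 and 120.1 CPM in culture and 183, 184, 169, 199 and 204 CPM in fresh tissue. It fell by 0.52 ± 0.11 on the log2 scale in culture (adjusted p = 0.000685) and by 0.45 ± 0.11 in culture with vesicles (adjusted p = 0.00209). Its cultured libraries all lay below the fresh ones.

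XBP1, the transcription factor made from the mRNA that ERN1 splices (gene 101092150), had 209, 242, 211, 189 and 222 CPM in culture with vesicles, 210.4, 282, 157, 195 and 231 CPM in culture and 267, 259.9, 251, 329 and 285 CPM in fresh tissue. Culture overlapped fresh tissue through culture 2, culture with vesicles did not, and culture 3 was the lowest library of all. XBP1 fell by 0.37 ± 0.14 in culture (log2, edgeR adjusted p = 0.0387) and by 0.38 ± 0.14 in culture with vesicles (adjusted p = 0.0378). That call was close to the threshold and was lost without culture 1, 3 or 4 or fresh 1, 4 or 5, with an adjusted p of 0.0580 without culture 3. The call in culture with vesicles was lost without fresh 1, 4 or 5 or without vesicle library 1, 3 or 4. Counts per gene do not separate the spliced from the unspliced form. EIF2AK3 (PERK), the kinase that slows translation under ER stress (gene 101095973), had 58.8, 49.1, 53.2, 49.5 and 46.3 CPM in culture with vesicles, 53.8, 49.3, 26.9, 48.7 and 52.2 CPM in culture and 49.5, 54.5, 52.4, 47.7 and 55.4 CPM in fresh tissue. The groups overlapped and culture 3 was the lowest library of all. EIF2AK3 differed from fresh by -0.17 ± 0.16 in culture (adjusted p = 0.382) and by -0.01 ± 0.16 in culture with vesicles (adjusted p = 0.952), which did not pass.

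All 7 genes of ER-associated degradation fell in culture against fresh (median log2 -0.96), and 6 of 7 fell in culture with vesicles (median -0.82). Without culture 3 the count in culture was 7. SYVN1 (HRD1), the ubiquitin ligase that forms the exit channel for misfolded proteins (gene 101084316), had 109.9, 89.3, 119.8, 84.5 and 98.2 CPM in culture with vesicles, 105, 109, 89.5, 84.2 and 106 CPM in culture and 402, 383, 396, 368 and 366 CPM in fresh tissue. The cultured and fresh libraries were far apart with no overlap. SYVN1 fell 3.88-fold in culture (log2 -1.96 ± 0.12, edgeR adjusted p = 1.34e-08) and 3.82-fold in culture with vesicles (-1.93 ± 0.12, adjusted p = 1.41e-08). HERPUD1, a membrane protein of the SYVN1 complex (gene 101082710), had 83.9, 90.8, 85.9, 79.7 and 92.0 CPM in culture with vesicles, 75.5, 93.2, 66.9, 79.1 and 88.2 CPM in culture and 247, 226, 224, 409 and 198 CPM in fresh tissue. Its groups did not overlap, and fresh 4 was again the highest. HERPUD1 fell 3.24-fold in culture (log2 -1.69 ± 0.18, adjusted p = 1.51e-06) and 3.02-fold in culture with vesicles (-1.59 ± 0.18, adjusted p = 2.58e-06).

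SEL1L, the adaptor that stabilises SYVN1, fell less, by 0.71 ± 0.18 on the log2 scale in culture (edgeR adjusted p = 0.00404), with 155 to 179 CPM in culture with vesicles, 75.6 to 185 CPM in culture and 214 to 278 CPM in fresh tissue. DERL1 and DERL2 are derlins, rhomboid-like proteins at the exit channel. DERL2 fell by 0.96 ± 0.13 in culture (adjusted p = 2.42e-05). DERL1 fell by 0.29 ± 0.10 (adjusted p = 0.0217), a call lost without fresh 1 or fresh 5, and differed by -0.22 ± 0.10 in culture with vesicles (adjusted p = 0.0705). DNAJB9, a J-domain co-chaperone of HSPA5 that escorts degradation substrates, fell by 1.46 ± 0.25 in culture (adjusted p = 0.000144). EDEM1, which trims mannose from misfolded glycoproteins, fell by 0.38 ± 0.11 (adjusted p = 0.00898). The calls for SEL1L and EDEM1 in culture with vesicles were lost without fresh 3 and without fresh 5, in that order.

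Of the 12 genes of targeting and translocation, 5 fell, 0 rose and 7 did not pass in culture against fresh (median log2 -0.43). In culture with vesicles 4 fell and 0 rose (median -0.41). These are 41.7% lower in culture and 33.3% with vesicles, beside 25.6% and 25.5% of all genes lower, and 28.7% and 27.4% higher. Without culture 3 the counts for this group in culture were 8 lower and 1 higher. Signal peptidase, which cuts off the signal peptide, was uneven among its accessory subunits. SPCS3 (gene 101085116) had 107, 106, 115, 94.4 and 113 CPM in culture with vesicles, 108, 122, 84.1, 99.2 and 104 CPM in culture and 482, 509.5, 430.0, 339 and 400.2 CPM in fresh tissue. All cultured libraries lay below all fresh libraries by a wide margin. SPCS3 fell 4.18-fold in culture (log2 -2.06 ± 0.14, edgeR adjusted p = 2.05e-08) and 4.03-fold in culture with vesicles (-2.01 ± 0.14, adjusted p = 2.40e-08). SPCS2 fell by 0.83 ± 0.25 in culture (adjusted p = 0.0118) and by 0.66 ± 0.25 in culture with vesicles (adjusted p = 0.0379), a call lost without any single fresh or vesicle library. SPCS1 differed by -0.72 ± 0.33 in culture (adjusted p = 0.0762) with 88.4 to 103 CPM in culture with vesicles, 16.4 to 118 CPM in culture and 134 to 156 CPM in fresh tissue, and by -0.45 without culture 3, where it passed.

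SSR4, a subunit of the translocon-associated complex that assists some signal peptides (gene 101081452), had 163, 198, 179, 152 and 156 CPM in culture with vesicles, 179.7, 263, 121, 169.6 and 152 CPM in culture and 369.8, 404, 360.1, 387 and 330.0 CPM in fresh tissue. The cultured libraries lay below fresh tissue without overlap. It fell 2.09-fold in culture (log2 -1.06 ± 0.17, edgeR adjusted p = 8.99e-05) and 2.18-fold in culture with vesicles (-1.12 ± 0.17, adjusted p = 5.48e-05). Its partner SSR1 fell by 0.74 ± 0.27 in culture (adjusted p = 0.0305; lost without fresh 3, 4 or 5) and differed by -0.53 ± 0.27 in culture with vesicles (adjusted p = 0.114). SSR3 differed by -0.33 ± 0.18 in culture (adjusted p = 0.145). SSR2 had 206, 232, 199, 192 and 190.1 CPM in culture with vesicles, 192, 252, 481, 188 and 211 CPM in culture and 271, 306, 243, 325 and 262 CPM in fresh tissue. Culture 3 was the highest library of all, while the other cultured libraries were near or below the fresh range. SSR2 differed by -0.09 ± 0.22 in culture (adjusted p = 0.757) and by -0.41 without culture 3, where it passed.

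For the Sec61 channel, SEC61A1, its pore subunit, fell by 0.38 ± 0.11 on the log2 scale in culture (edgeR adjusted p = 0.00831). The small subunits SEC61B and SEC61G differed by -0.35 ± 0.19 (adjusted p = 0.131) and -0.48 ± 0.22 (adjusted p = 0.0714) and did not pass. SRP54 and SRP72 belong to the signal recognition particle, which brings ribosomes to the channel. SRP54 differed by -0.01 ± 0.15 and SRP72 by 0.15 ± 0.14 in culture (adjusted p = 0.945 and 0.401), and without culture 3 SRP72 passed as higher, at 0.28.

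In N-glycosylation, 4 of 6 members fell in both comparisons, 0 rose, and the medians were -1.03 in culture and -0.85 in culture with vesicles. Without culture 3 the count in culture was 5 of 6. All are subunits of oligosaccharyltransferase, which moves the sugar chain to the new protein. DDOST, a non-catalytic core subunit (gene 101093032), had 236, 229, 219.7, 207 and 218 CPM in culture with vesicles, 231, 257, 172, 205 and 219 CPM in culture and 666, 658, 599, 638 and 533 CPM in fresh tissue. The cultured and fresh libraries did not overlap. DDOST fell 2.85-fold in culture (log2 -1.51 ± 0.12, edgeR adjusted p = 1.11e-07) and 2.79-fold in culture with vesicles (-1.48 ± 0.12, adjusted p = 1.32e-07). RPN1, a core subunit that binds some substrates (gene 101087978), had 396, 422, 443, 397 and 438 CPM in culture with vesicles, 409.5, 482, 497, 389 and 452 CPM in culture and 924, 1123, 974, 834 and 1036 CPM in fresh tissue. It too fell without overlap, 2.19-fold in culture (log2 -1.13 ± 0.12, adjusted p = 1.42e-06) and 2.33-fold in culture with vesicles (-1.22 ± 0.12, adjusted p = 6.58e-07).

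RPN2, another core subunit, fell by 1.05 ± 0.17 on the log2 scale in culture (edgeR adjusted p = 0.000110). The catalytic subunits differed in size of change: STT3B, which can act after translation, fell by 1.00 ± 0.25 in culture (adjusted p = 0.00319), with 259 to 309.9 CPM in culture with vesicles, 81.0 to 287 CPM in culture and 428 to 549.9 CPM in fresh tissue. STT3A, which acts at the channel, differed by -0.45 ± 0.19 (adjusted p = 0.0536) with 165 to 183 CPM in culture with vesicles, 78.6 to 208 CPM in culture and 195 to 235 CPM in fresh tissue, and passed without culture 3, at -0.27. OSTC, which ties the STT3A complex to the channel, differed by -0.50 ± 0.29 in culture (adjusted p = 0.153) and by -0.28 ± 0.28 in culture with vesicles (adjusted p = 0.435).

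**Figure D3:**
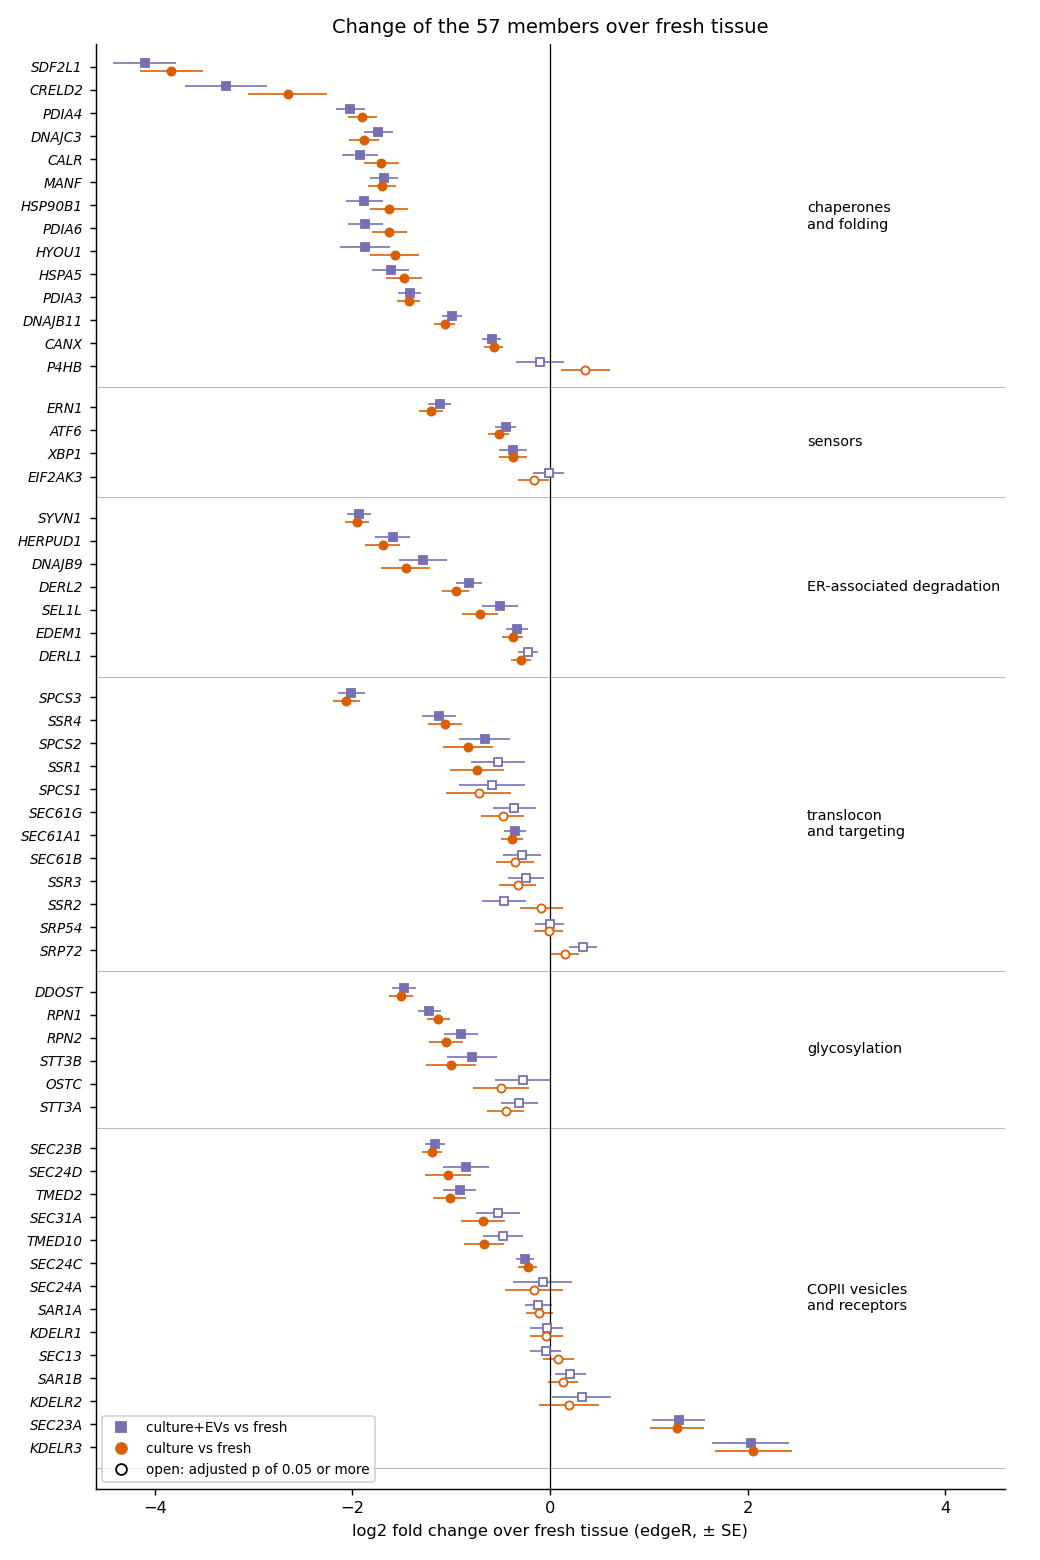
Log2 fold change of the 57 members against fresh tissue (x axis; 0 marks no difference), for culture with added vesicles (culture+EVs) and for culture, grouped by role; bars are ± 1 SE from the edgeR fit of 5 libraries per group and filled points passed the test at an adjusted p of 0.05. Chaperones lie to the left apart from P4HB, and KDELR3 and SEC23A are the members called to the right.

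The 14 COPII genes did not share a direction. In culture 6 fell against fresh, 2 rose and 6 did not pass (median log2 -0.14), and in culture with vesicles 4 fell and 2 rose (median -0.10). These are 42.9% lower and 14.3% higher in culture, and 28.6% lower and 14.3% higher with vesicles, where the share lower is near the 25.5% of all genes. Without culture 3 these were 6 lower and 4 higher in culture. The inner coat pairs a SEC23 with a SEC24, which picks the cargo. SEC23B (gene 101101125) had 81.6, 78.4, 87.0, 79.1 and 85.1 CPM in culture with vesicles, 75.7, 77.6, 78.0, 85.5 and 86.8 CPM in culture and 158, 177, 186, 217 and 186 CPM in fresh tissue. The cultured libraries were all below the fresh ones. SEC23B fell 2.29-fold in culture (log2 -1.20 ± 0.10, edgeR adjusted p = 1.94e-07) and 2.25-fold in culture with vesicles (-1.17 ± 0.10, adjusted p = 2.37e-07).

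Its paralog SEC23A went the other way. SEC23A (gene 101086569), which is needed for collagen export in zebrafish and human, had 49.8, 82.6, 59.1, 37.9 and 63.2 CPM in culture with vesicles, 54.0, 90.1, 25.9, 46.1 and 72.9 CPM in culture and 24.4, 24.1, 22.3, 25.1 and 22.8 CPM in fresh tissue. The cultured libraries all lay above the fresh ones, with culture 3 the lowest of the cultures. SEC23A rose 2.43-fold in culture (log2 1.28 ± 0.27, edgeR adjusted p = 0.000919; 1.48 without culture 3) and 2.46-fold in culture with vesicles (1.30 ± 0.27, adjusted p = 0.000847). Among the SEC24 genes, SEC24D fell by 1.04 ± 0.23 in culture (adjusted p = 0.00148). SEC24C fell by 0.23 ± 0.09 (adjusted p = 0.0467), a call lost when any single library other than culture 3 was left out, and by 0.25 ± 0.09 in culture with vesicles (adjusted p = 0.0303), lost without fresh 1, 3, 4 or 5 or without vesicle library 1 or 2. SEC24A differed by -0.16 ± 0.30 (adjusted p = 0.666), with 12.8 CPM in culture 3 and 37.6 to 62.9 CPM in the other cultures.

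The outer coat is built of SEC13 and SEC31. SEC31A fell by 0.68 ± 0.22 on the log2 scale in culture (edgeR adjusted p = 0.0171). With vesicles it differed from fresh by -0.53 ± 0.22 (adjusted p = 0.0556), and passed there with the replicate number as a block (adjusted p = 0.0416). SEC13, also a nuclear pore protein, differed by 0.08 ± 0.16 in culture (adjusted p = 0.674). The GTPases SAR1A and SAR1B start coat assembly. SAR1A differed by -0.11 ± 0.14 (adjusted p = 0.518) and SAR1B by 0.13 ± 0.16 (adjusted p = 0.496), and SAR1B passed as higher without culture 3, at 0.26.

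Of the receptors, TMED2, a p24 protein that loads cargo into vesicles (gene 101100419), had 351, 358, 372, 368 and 369.7 CPM in culture with vesicles, 344, 427, 190.3, 358 and 374 CPM in culture and 631, 696, 724, 664 and 717 CPM in fresh tissue. The cultured libraries lay below fresh tissue, and culture 3 was the lowest of all. TMED2 fell 2.03-fold in culture (log2 -1.02 ± 0.17, edgeR adjusted p = 0.000106; -0.86 without culture 3) and 1.89-fold in culture with vesicles (-0.92 ± 0.17, adjusted p = 0.000271). Its partner TMED10 fell by 0.67 ± 0.20 in culture (adjusted p = 0.0109), and differed by -0.48 ± 0.20 in culture with vesicles (adjusted p = 0.0564; 0.0433 with the replicate block).

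The KDEL receptors retrieve HSPA5 and other chaperones from the Golgi. KDELR3 (gene 101080390) had 50.0, 118, 81.3, 44.1 and 77.8 CPM in culture with vesicles, 58.1, 152, 25.9, 47.8 and 94.3 CPM in culture and 18.6, 23.1, 17.3, 16.1 and 15.8 CPM in fresh tissue. The fresh libraries were the lowest and did not overlap the cultured ones, and the number 2 library was the highest in both cultured groups. KDELR3 rose 4.16-fold in culture (log2 2.05 ± 0.39, edgeR adjusted p = 0.000409; 2.28 without culture 3 and 1.64 without culture 2) and 4.08-fold in culture with vesicles (2.03 ± 0.39, adjusted p = 0.000456). KDELR1 differed by -0.04 ± 0.17 in culture (adjusted p = 0.860), and KDELR2 by 0.19 ± 0.30 (adjusted p = 0.620) with 184 to 270.2 CPM in culture with vesicles, 53.4 to 309 CPM in culture and 156 to 183 CPM in fresh tissue. Without culture 3 KDELR2 passed as higher, at 0.44.

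Markers of connective tissue followed KDELR3 and SEC23A in some libraries and not in others. The summed level of 7 fibroblast markers (PDGFRA, PDGFRB, DCN, LUM, COL1A1, COL1A2 and COL3A1) was 1077 to 11471 CPM in culture with vesicles, 1384 to 15828 CPM in culture and 562 to 2278 CPM in fresh tissue, highest in the number 2 library of both cultured groups. Culture 3 had the next highest sum of the cultures, 8981 CPM, with the lowest KDELR3 and SEC23A of them. Its markers did not go together. COL1A1, COL1A2 and COL3A1 had 71109, 59345 and 30647 counts there, exceeded among the cultures only by culture 2. PDGFRA, DCN and LUM, with 742, 6869 and 572 counts, were the lowest of the cultures, and PDGFRB, with 3735, lay within their range. The sums of 1077 CPM in vesicle library 4 and 1384 CPM in culture 4 lay in the fresh range, while their KDELR3 lay above it. Both sums were above the 562 CPM of fresh 4. Each cultured library had a higher sum than the fresh library of the same number. Of the 7 fibroblast markers, 4 were called higher in culture against fresh. The sum of 6 basal cell markers was 2063 to 5031 CPM in culture with vesicles, 2108 to 7770 CPM in culture and 315 to 563 CPM in fresh tissue, with 6 of 6 higher and culture 3 the highest. All 9 tested principal cell markers and all 8 tested epididymal genes were lower. Of the epididymal genes, LCN8 was at 0 in culture with vesicles and in fresh tissue, and SPINT4 in both cultured groups. For 8 plasma cell markers, another secretory cell type, the sums were 203 to 270 CPM in culture with vesicles, 175 to 307 CPM in culture and 368 to 439 CPM in fresh tissue, but the list shares XBP1 and DERL3 with the pathway. Of its 6 tested markers, TNFRSF17, DERL3 and XBP1 were called lower and PRDM1 and POU2AF1 higher in both comparisons against fresh. Macrophage markers summed to 59.5 to 98.2 CPM in culture with vesicles, 64.3 to 128 CPM in culture and 20.5 to 43.8 CPM in fresh tissue, with MARCO at 0 in all 15 libraries. Of the 6 tested, 3 (CD14, CD68 and MRC1) were called higher in both comparisons, and CSF1R was called lower in culture with vesicles. The part of any of these cell types in the members' values was not tested.

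The ratio of 2 genes within a library does not depend on how libraries are scaled. For 14 pairs of paralogs or partners, chosen with earlier results of these data known, the log2 ratio was compared with fresh by an exact permutation test over libraries, 2-sided and adjusted over 28 tests. With 5 against 5 libraries the smallest p is 0.00794, or 0.0106 adjusted. In culture 10 of 14 ratios differed from fresh and in culture with vesicles 13 did. Ratios of other gene pairs were not compared. Over all genes 54.3% and 52.9% were called in these comparisons, so the counts are not read as particular to these pairs. The ratio SEC23A/SEC23B averaged -0.60 ± 0.68 in culture and -2.95 ± 0.17 in fresh tissue on the log2 scale (SD, n = 5 each), a difference of 2.35 ± 0.32 (SE; exact permutation adjusted p = 0.0106), and the difference in culture with vesicles was 2.42 ± 0.20. KDELR3/KDELR1 differed by 1.91 ± 0.28 in culture and by 1.99 ± 0.25 in culture with vesicles.

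Ratios among chaperones and their partners also shifted. CALR/CANX, the soluble against the membrane lectin, differed by -1.18 ± 0.18 in culture and -1.33 ± 0.09 in culture with vesicles. PDIA3/P4HB differed by -1.67 ± 0.24 and -1.31 ± 0.09, in the same order of groups. SEL1L/SYVN1, the adaptor against its ligase, differed by 1.20 ± 0.21 in culture and 1.44 ± 0.09 in culture with vesicles. STT3A/STT3B differed by 0.62 ± 0.16 and 0.48 ± 0.09, DERL1/DERL2 by 0.69 ± 0.11 and 0.60 ± 0.08, and SPCS2/SPCS3 by 1.08 ± 0.31 and 1.34 ± 0.10, with culture 3 alone among the cultured libraries in the fresh range of SPCS2/SPCS3. The call of SPCS2/SPCS3 in culture (exact permutation adjusted p = 0.0386) was lost in 9 of 16 alternatives. That of SAR1A/SAR1B in culture with vesicles, at -0.33 ± 0.12 (exact permutation adjusted p = 0.0303), was lost in 7 of 16. SEC24A/SEC24D and SEC24C/SEC24D were higher by 0.81 ± 0.20 and 0.90 ± 0.33 in culture. HSPA5/HSP90B1 did not pass in either comparison, with differences of 0.19 ± 0.18 in culture (exact permutation adjusted p = 0.347) and 0.27 ± 0.14 in culture with vesicles (adjusted p = 0.111). SAR1A/SAR1B, KDELR2/KDELR1 and SSR1/SSR4 did not pass in culture (exact permutation adjusted p = 0.359, 0.833 and 0.519 in that order).

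**Figure D4:**
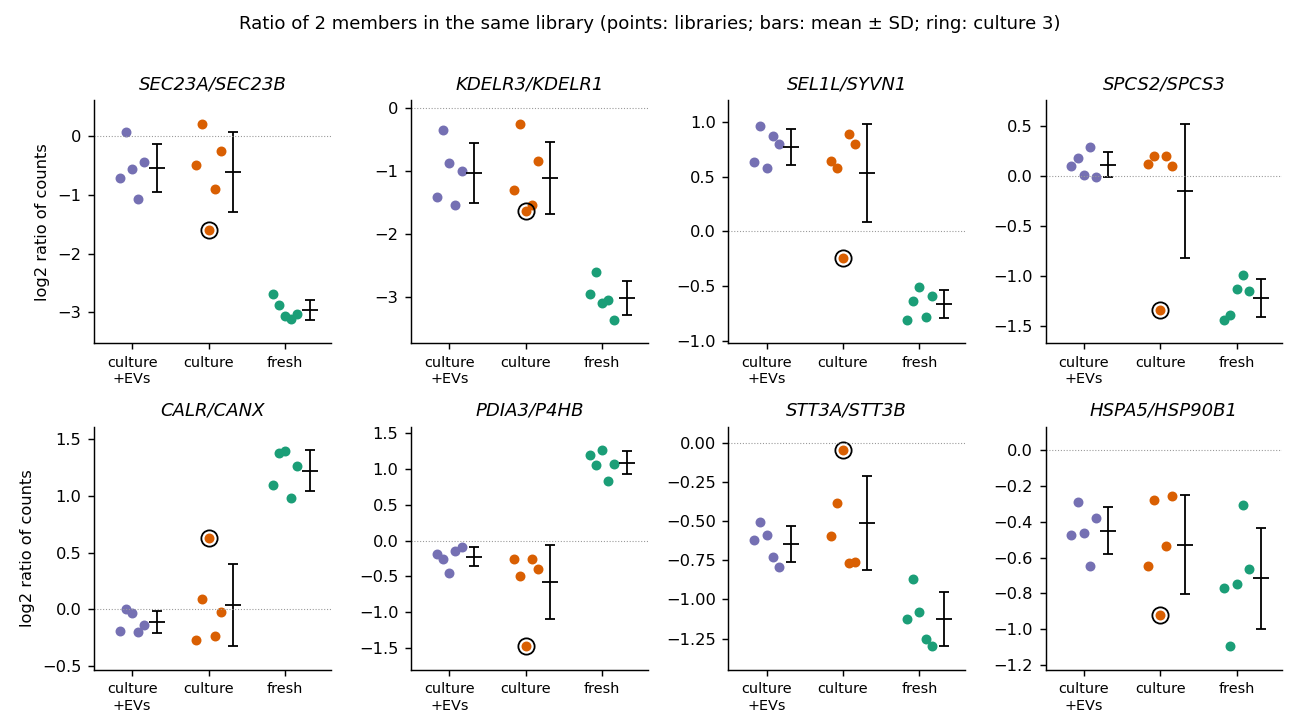
Log2 ratio of the counts of 2 members within each library (y axis) for pairs of paralogs or partners, by culture with added vesicles (culture+EVs), culture and fresh tissue; points are libraries, bars are mean ± SD of 5 libraries and the ring marks culture 3. SEC23A/SEC23B and KDELR3/KDELR1 lie higher in both cultured groups than in fresh tissue, and CALR/CANX lies lower.

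Culture 3 departed from the other 4 culture libraries in opposite directions for different roles. Its median log2 difference from the median of the other cultures was 0.73 over the 14 chaperones, and it was the highest culture library for 11 of them. The same median was -0.26 for the sensors, -0.32 for degradation, -0.83 for translocation, -0.999 for glycosylation and -1.07 for COPII genes. It was the lowest culture library for 10 of 12 translocation genes, 5 of 6 glycosylation genes, 10 of 14 COPII genes and 5 of 7 degradation genes. P4HB and CRELD2 stood out upwards, and SPCS1 and KDELR2 downwards, as given above. This is 1 library, and the part of its low mitochondrial share in these values was not tested. The same difference was not computed over all genes, so the pattern is not read as particular to these roles. The library culture with vesicles 3 did not stand apart in this way.

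**Figure D5:**
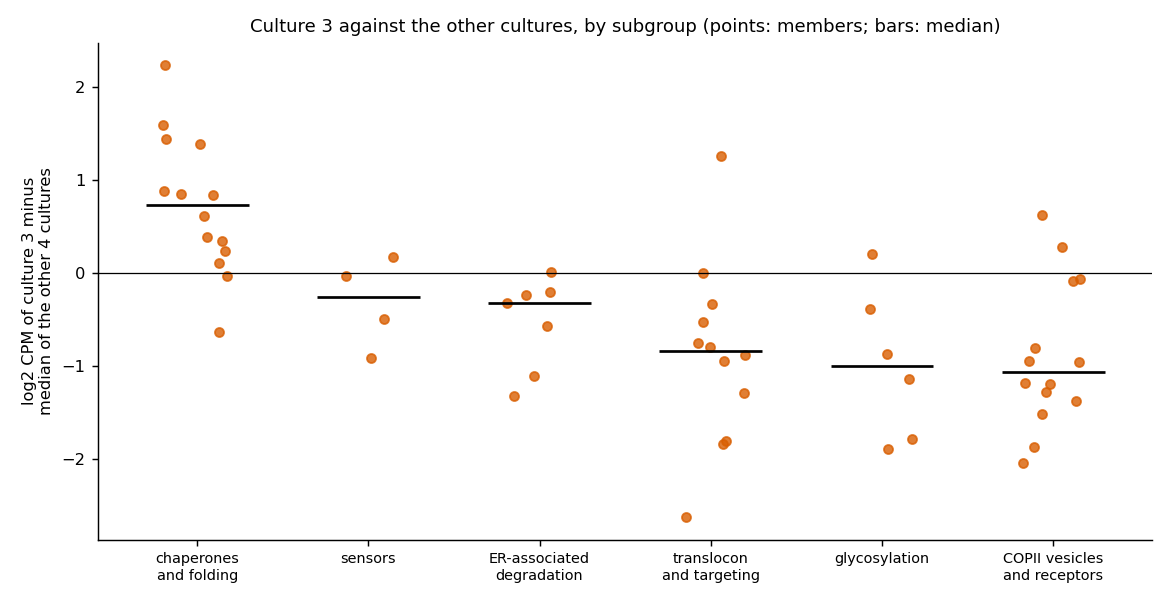
Log2 difference between culture 3 and the median of the other 4 culture libraries (y axis; 0 marks no difference) for each of the 57 members, grouped by role on the x axis; points are genes and the bar is the median of the group. The chaperones lie mostly above 0 with a median of 0.73, and translocation, glycosylation and COPII genes mostly below.

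Added vesicles gave no difference that passed the test. In culture with vesicles against culture, 0 of 57 members and 0% of the 18038 genes were called by edgeR, and DESeq2 and limma-voom also called 0. At an unadjusted p under 0.05, edgeR listed 183 of all genes (1.01%) and 0 of the members. That share is below the 0.05 that no difference would give, so the test may have been conservative and its 0 calls do not show the absence of an effect. Same-numbered libraries of the cultured groups deviated together, which this fit leaves out. With the replicate number as a block, edgeR listed 206 genes and 0 members at that limit and called 0. With 1 culture library left out and no block, the edgeR count at that limit was 155 to 560 genes, with 2 members listed without culture 1 and 2 without culture 4. Of the members 39 had a positive and 18 a negative difference, with a median log2 difference of 0.05. In the fit with group as the only term, the 95% interval of the difference lay within 1 log2 unit of 0 for 56 of 57 members. That of CRELD2 ran from -1.46 to 0.21. All libraries of the cultured groups overlapped for all 57 members.

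The 5 members with the smallest p were P4HB, SSR2, CRELD2, PDIA6 and HSP90B1, all lower with vesicles and each with an adjusted p of 1. P4HB differed by -0.46 ± 0.24 (edgeR, unadjusted p = 0.0799; 95% interval -0.99 to 0.07) and SSR2 by -0.38 ± 0.22 (unadjusted p = 0.106; -0.86 to 0.10). CRELD2 differed by -0.62 ± 0.38 (unadjusted p = 0.122). PDIA6 differed by -0.24 ± 0.17 (unadjusted p = 0.186; -0.62 to 0.14), with 302, 348, 328, 273 and 325 CPM in culture with vesicles, 294, 412, 551, 280.1 and 325 CPM in culture and 1156, 1357, 1164, 1013 and 1066 CPM in fresh tissue. HSP90B1 differed by -0.25 ± 0.18 (unadjusted p = 0.193; -0.65 to 0.15), with 1089, 1074, 1158, 899 and 1141 CPM in culture with vesicles, 1077, 1168, 2013, 954 and 1166 CPM in culture and 3872, 4585, 3599, 3961 and 3723 CPM in fresh tissue. In all 5 genes culture 3 was the highest culture library, and without it the differences were -0.08 for P4HB, -0.05 for SSR2, 0.15 for CRELD2, -0.06 for PDIA6 and -0.03 for HSP90B1.

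Genes of the same pathway outside the 57 were read from lists of 124 genes, of which 123 were matched and tested. Of these, 57 fell in culture against fresh, 14 rose and 52 did not pass (46.3% lower and 11.4% higher, median log2 -0.36). In culture with vesicles 54 fell and 11 rose (43.9% and 8.94%, median -0.35). Without culture 3 these were 70 lower and 16 higher in culture. Over all genes 25.6% were lower and 28.7% higher in culture, and 25.5% and 27.4% with vesicles. Among 20 folding genes 14 fell and 2 rose in culture (70% and 10%). ERP29, a lumenal folding helper, fell by 3.01 ± 0.18 on the log2 scale (edgeR adjusted p = 9.11e-09), and DNAJC10, a reductase with a J domain, by 3.65 ± 0.22 (adjusted p = 9.23e-09). CALU, a calcium-binding protein, rose by 1.25 ± 0.30 (adjusted p = 0.00222) and UGGT2, a paralog of the folding sensor for glycoproteins, by 2.39 ± 0.69 (adjusted p = 0.00871; 1.56 without culture 2).

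In stress signalling 7 of 14 genes rose and 1 fell in culture (50% and 7.14%), and 6 rose and 4 fell without culture 3. In culture with vesicles 4 rose and 3 fell. These are 28.6% higher and 21.4% lower, near the 27.4% and 25.5% of all genes. ERN2, the epithelial paralog of ERN1, fell by 3.78 ± 0.66 (log2; edgeR adjusted p = 0.000190; -4.88 without culture 5). CREB3L4, a membrane-bound transcription factor related to ATF6, rose by 1.36 ± 0.30 (adjusted p = 0.00116) and MBTPS2, the protease that releases ATF6, by 0.82 ± 0.18 (adjusted p = 0.00131). In degradation 6 of 15 fell and 1 rose in culture (40% and 6.67%). The derlin DERL3 fell by 4.31 ± 0.48 (edgeR adjusted p = 2.77e-06) and SELENOS, a derlin partner, by 1.39 ± 0.14 (adjusted p = 1.01e-06). The ubiquitin-conjugating enzyme UBE2J2 rose by 0.30 ± 0.12 (adjusted p = 0.0437), a call lost without fresh 2, 3 or 5, culture 1, 4 or 5, or vesicle library 1, 2, 3 or 5. In targeting 9 of 20 fell and 1 rose (45% and 5%). SEC11C, a catalytic subunit of signal peptidase, fell by 3.02 ± 0.21 (adjusted p = 3.13e-08), whereas the alternative catalytic subunit SEC11A, named here after its values were seen, differed by -0.14 ± 0.16 (adjusted p = 0.482). SRPRA, the receptor of the signal recognition particle, fell by 0.64 ± 0.10 (adjusted p = 0.000108), and TRAM2, a translocation factor used for collagen, rose by 1.76 ± 0.37 (adjusted p = 0.000916).

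In glycosylation 13 of 24 fell and 2 rose in culture (54.2% and 8.33%). ALG1, a mannosyltransferase that builds the lipid-linked sugar, fell by 2.03 ± 0.16 (log2; edgeR adjusted p = 1.11e-07), and MAGT1, a subunit of the STT3B complex, by 1.41 ± 0.22 (adjusted p = 6.39e-05). DOLK and ALG3, which act in making and extending that lipid-linked sugar, rose by 0.90 ± 0.17 and 0.75 ± 0.28 (adjusted p = 0.000437 and 0.0315), and the call of ALG3 was lost without fresh 1, 2 or 3 or culture 1, 2, 4 or 5. In vesicle traffic 14 of 30 fell and 1 rose (46.7% and 3.33%). MIA2, which helps large cargo into COPII vesicles, fell by 2.01 ± 0.12 (adjusted p = 1.04e-08) and the cargo lectin LMAN2 by 1.42 ± 0.16 (adjusted p = 2.57e-06). COPE, a subunit of the COPI coat of retrograde vesicles, rose by 0.59 ± 0.22 (adjusted p = 0.0318), a call lost without fresh 1, 3, 4 or 5 or culture 2 or 3.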

How the data were processed

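The authors deposited raw counts per gene, with 38995 genes in 1 table of 15 columns. Tools listed in the submitters' processing notes, without their roles, are StringTie 2.1.3b, Bowtie2 2.3.4.1, HISAT2 2.1.0 and Trimmomatic 0.38. Not given in the sources used here are the genome build, annotation, counting program, strand setting and treatment of reads matching several genes, so values of close paralogs and of overlapping or antisense genes are uncertain. Gene identifiers matched a RefSeq gene table (assembly F.catus_Fca126_mat1.0) for all 38995 genes, used for names only. No promoter or protein sequences were used here.

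Low-count genes were removed by filterByExpr (minimum count 10, minimum total 15), which kept 18038 and left out 20957. After TMM scaling (trimmed mean of M values), the quasi-likelihood test of edgeR 4.0.16 was run in R 4.3.3, with group as the only term, all 15 libraries in 1 fit and 12 residual degrees of freedom. The p-values were adjusted by Benjamini-Hochberg over all genes tested and called at 0.05. The SE of a log2 fold change is its size divided by the square root of F. CPM uses the scaled library sizes, and log2 CPM a prior count of 2. DESeq2 1.42.0 and limma 3.58.1 (voom) were alternatives. Both steps that test many values were tested on simulated data. CPM is not per length, so levels are not compared between genes.

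The members and lists were chosen with earlier results of these data known. Values in every library are given for the 2 members with the smallest p per role, members called against the direction of their role, the 4 sensors, HSPA5, and the 5 members with the smallest p between the cultured groups. Those of SDF2L1, the member with the largest fold against fresh, are given outside this rule. For each list of other pathway genes, up to 2 called genes with the smallest p in each direction are named. One of 124 symbols of those lists was not used here. The labels give the same replicate numbers in each group. Deviations from the group means were compared for same-numbered libraries: r was 0.242 to 0.362 between culture with vesicles and fresh and 0.181 to 0.602 between the cultured groups, over 0.1 for every number, and 0.0326 to 0.344 between culture and fresh. The number of counts limits the precision of low values.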

Additional observations from a re-analysis of the deposited data

Results flagged for a closer look

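Within groups of 5 libraries, the highest or lowest value was set against the others for 22 members and 7 shares of counts, 87 groups in all, and 7 had a library far from the rest. Chance alone gives about 1 in 20 groups. Of the 7, 4 were in culture 3. There HSP90B1 was high, at 10.98 log2 CPM, and so was CRELD2, at 6.73 log2 CPM, while TMED2 was low, at 7.57 log2 CPM, and EIF2AK3 was low, at 4.75 log2 CPM. In the library culture with vesicles 4, HSPA5 was low for its group at 9.17 log2 CPM, and the chaperones together took 0.499% of the counts, the lowest share of that group. In fresh 4, HSPA5 was high at 11.65 log2 CPM.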

How the results depend on the processing

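Over 24 alternatives per member (DESeq2, limma-voom with sample quality weights, other scalings and filters, the replicate number as a block, only the 2 groups compared, each library left out, and culture 3 and fresh 4 left out, the last chosen after seeing the data), no called member changed direction. The count of members lower than fresh was 34 to 44 in culture (34 to 42 with 1 library left out) and 28 to 44 with vesicles (30 to 42). Calls over all genes moved as well. Limma-voom, with 44 members lower in each comparison, called 5351 of 18038 genes lower in culture and 5841 with vesicles. Without a low-count filter (28 members with vesicles) 4788 of 28192 were lower. With only the 2 groups compared (34 members in culture) 4207 of 17339 were lower. The members higher in culture numbered 4 with limma-voom, 4 without culture 3 and fresh 4, and 2 to 5 with 1 library left out. With vesicles they numbered 4 with limma-voom and 4 with only the compared groups. With vesicles against culture the count was 0 throughout. Of the 57 members, 38 in culture and 33 in culture with vesicles kept their call and direction under every alternative. For the ratios, 9 to 12 were called in culture, and for culture with vesicles 12 to 13. With the replicate block, culture against fresh gave 38 lower and 2 higher. Cultures 1, 2, 4 and 5 each deviated most like the fresh library of their own number. Culture 3, the library that stood apart, did not (r 0.0326, where fresh 1 was closer), so the numbers were not read as pairs in this comparison. For culture with vesicles against fresh, where all numbers pair, the block gave 36 lower, and changed no call other than those of SEC31A and TMED10. Some log2 differences that did not pass changed sign. In culture against fresh these were, with limma-voom, P4HB -0.078, SRP54 0.046, SEC13 -0.15, KDELR1 0.037; with upper-quartile scaling, SEC13 -0.011; with no low-count filter, SRP54 0.0203; and without culture 3 and fresh 4, P4HB -0.0038, SRP54 0.078, SEC13 -0.026, SEC24A 0.10, KDELR1 0.084. With 1 library left out they ranged over SRP54 -0.088 to 0.11, KDELR1 -0.13 to 0.12, SSR2 -0.41 to 0.022, KDELR2 -0.021 to 0.44, P4HB -0.013 to 0.48, SEC13 -0.028 to 0.17, SEC24A -0.37 to 0.075 and the ratio KDELR2/KDELR1 -0.042 to 0.30. For culture with vesicles against fresh they were, with limma-voom, EIF2AK3 0.0098, SRP54 0.022, SEC24A 0.024; with no low-count filter, EIF2AK3 0.024, SRP54 0.034, KDELR1 0.0041; and SRP54 0.00207 with the block. With 1 library left out they ranged over EIF2AK3 -0.082 to 0.014, SRP54 -0.052 to 0.041, SEC13 -0.15 to 0.0084, KDELR1 -0.078 to 0.014, SEC24A -0.21 to 0.0035. With vesicles against culture they were HSP90B1 0.016, PDIA6 0.017 and CRELD2 0.18 with limma-voom, and CRELD2 0.15 without culture 3 and fresh 4 and -0.82 to 0.15 with 1 library left out. The cause of these changes was not tested. The lowest count of a member in any library was 211 (SDF2L1), so no member was near the limit of detection.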
